A study of Mus musculus with 6 samples.

Results

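Transcripts of 10 secreted growth factors linked to blood vessel growth and bone formation were followed in RAW264.7, a mouse macrophage cell line. They are named by symbol, in a list drawn up with earlier results of these libraries known: Vegfa, Vegfb, Vegfc, Pdgfa, Pdgfb, Tgfb1, Igf1, Hbegf, Osm and Gdf15. All 10 were among the 52636 genes of the deposited tables, and all 10 were among the 11561 genes with enough counts to test. The line carries a BALB/c strain label, and 3 libraries came from cells that received 150 µg/ml of C2S, an extract, and were taken after 24 h. The other 3, PM_control, came from cells kept without the extract (0 µg/ml), also taken at 24 h. The labels give no composition for C2S, do not spell out PM, and name no separate cultures. The p-values therefore cover the spread among libraries only, and that spread may be technical. A single cell line also limits what the groups can stand for.

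Vascular endothelial growth factors (VEGFs) act on receptor tyrosine kinases of endothelial cells, and VEGF-A from macrophages is a classical driver of vessel sprouting in hypoxic or injured tissue. Platelet-derived growth factors (PDGFs) recruit pericytes and mesenchymal cells. Transforming growth factor beta 1 is stored in a latent form and drives matrix production, and insulin-like growth factor 1 and oncostatin M are macrophage products known to favour osteoblasts. Heparin-binding EGF-like growth factor is released from the cell surface by proteases, and GDF15 is a divergent member of the TGF-beta superfamily that cells secrete under stress.

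Of the 10 genes, 5 rose with C2S (Vegfa, Hbegf, Gdf15, Osm and Tgfb1), 3 fell (Vegfc, Pdgfb and Pdgfa) and 2 did not pass the test (Vegfb and Igf1). The rises ran from 67.3-fold for Vegfa to 1.22-fold for Tgfb1, and the falls from 4.08-fold for Vegfc to 1.53-fold for Pdgfa, as fitted by edgeR. The background was high, since 55.4% of all tested genes changed at an adjusted p of at most 0.05, with 27% higher and 28.4% lower. The 8 calls in 10 genes are to be read against that background. Called changes of at least 2-fold made up 6 of the 10 growth factor genes, against 14.5% of all tested genes, and the median absolute log2 fold change was 1.62, against 0.336 over all tested genes. The middle 95% of all tested genes ran from -1.56 to 2.50 in log2 fold change, and 4 of the 10 genes lay above it and 1, Vegfc, below it. Hbegf and Gdf15, both among the 8 calls, the 6 and the 4, reached the count filter through the C2S libraries alone. A large rise was thus a condition of their being counted. These shares describe a list chosen with results known and are not a test of it.

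**Figure D1:**
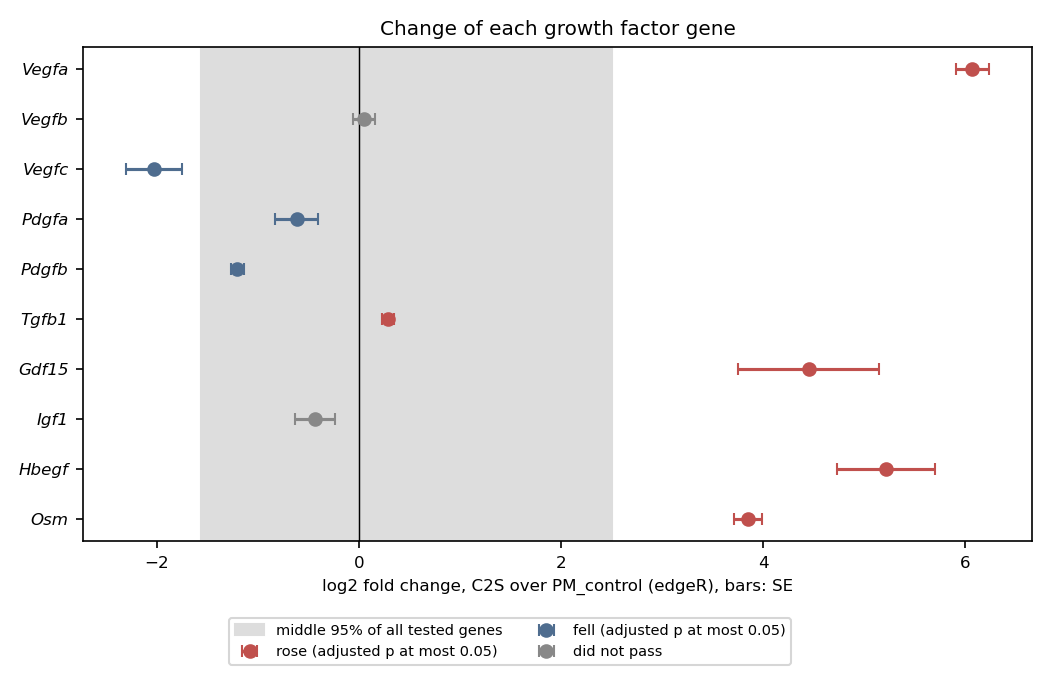
Log2 fold change (C2S over PM_control, x axis) of each growth factor gene from edgeR, with bars for the SE and a grey band for the middle 95% of all 11561 tested genes. Vegfa, Hbegf, Gdf15 and Osm lie right of the band and Vegfc left of it, while Pdgfb, Pdgfa, Tgfb1, Vegfb and Igf1 lie inside.

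Promoter letters of 4 of the genes are shown because they differ in direction of change and in base composition: a gene of large rise and high C2S level (Vegfa), a gene of large rise and low level (Gdf15), the gene with the largest fall among the 10 (Vegfc) and the gene with the highest level (Tgfb1). Each is the 250 bases before the start site in RefSeq (GRCm38.p6, the build called mm10), read 5′ to 3′ on the gene's own strand, with matches to the searched motifs in capitals. The windows are chr17:46032378-46032627 on the minus strand for Vegfa, chr8:70632457-70632706 on the minus strand for Gdf15, chr8:54077282-54077531 on the plus strand for Vegfc, and chr7:25686752-25687001 on the plus strand for Tgfb1.
Vegfa: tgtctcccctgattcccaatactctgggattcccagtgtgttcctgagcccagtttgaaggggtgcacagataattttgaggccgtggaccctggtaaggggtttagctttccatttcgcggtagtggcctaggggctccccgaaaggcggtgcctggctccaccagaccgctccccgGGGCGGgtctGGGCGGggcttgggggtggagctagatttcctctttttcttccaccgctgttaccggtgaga
Gdf15: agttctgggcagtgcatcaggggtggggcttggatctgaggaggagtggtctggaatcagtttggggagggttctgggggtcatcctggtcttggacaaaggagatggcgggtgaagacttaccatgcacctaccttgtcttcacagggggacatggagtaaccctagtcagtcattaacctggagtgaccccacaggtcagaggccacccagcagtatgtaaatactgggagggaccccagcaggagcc
Vegfc: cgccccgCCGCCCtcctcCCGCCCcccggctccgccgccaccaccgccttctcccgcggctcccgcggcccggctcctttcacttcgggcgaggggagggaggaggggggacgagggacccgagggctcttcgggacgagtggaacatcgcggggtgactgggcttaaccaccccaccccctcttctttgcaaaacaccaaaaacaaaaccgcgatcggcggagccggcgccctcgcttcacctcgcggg
Tgfb1: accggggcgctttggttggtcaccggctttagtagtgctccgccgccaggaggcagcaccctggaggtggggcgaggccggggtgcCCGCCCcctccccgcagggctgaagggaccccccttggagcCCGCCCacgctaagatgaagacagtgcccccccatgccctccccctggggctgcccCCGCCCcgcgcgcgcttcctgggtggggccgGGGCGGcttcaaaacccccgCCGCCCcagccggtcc
The motifs searched on both strands of the 300-base window (250 before and 50 after the start) were GGGCGG for SP1, ACGTG for hypoxia-inducible factors, TGANTCA for AP-1, TGACGTCA for the cyclic AMP response element, TGATGNAA for the C/EBP-ATF element and TATAAA for the TATA box. They can overlap each other. The shares of 32851 RefSeq promoter windows with at least 1 match were 35.7%, 19.6%, 7.81%, 1.79%, 3.97% and 13.6% in that order. All capitals in the Vegfa, Vegfc and Tgfb1 windows mark the SP1 letters or their reverse complement, 2 matches in Vegfa, 2 in Vegfc and 5 before the start in Tgfb1. The Gdf15 window held none of the 6 motifs, while a second annotated start of Gdf15 and one of Vegfa, not shown, each had the ACGTG letters. GC content was 59.2% in the Vegfa window, 56.4% in Gdf15, 71.6% in Vegfc and 75.2% in Tgfb1. The SP1 letters thus stood before genes that moved in opposite directions, and a match is a description of letters, not of a bound site. Windows were found for 7 of the 10 genes. Among the windows not shown, the AP-1 letters occurred in 1, that of Igf1, which did not pass the test.

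Vegfa (ENSMUSG00000023951, chromosome 17, 46016993 to 46032369, minus strand, GENCODE M21) encodes VEGF-A, the main ligand of the endothelial receptors VEGFR1 and VEGFR2. It had 188, 132 and 149 CPM (the share of a library's counts on a common scale, with library sizes adjusted by the TMM method) in the C2S libraries, against 2.39, 1.92 and 2.62 CPM in the PM_control libraries. The lowest C2S library stood far above the highest control library. The log2 fold change was 6.07 ± 0.16 (SE; edgeR, adjusted p = 1.62e-14), the 47th largest rise among all tested genes. Read counts were 1910, 1094 and 1316 for C2S and 26, 19 and 25 for PM_control, so the control level rested on 70 reads in all.

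Vegfb (ENSMUSG00000024962, chromosome 19, 6982473 to 6987651, minus strand) encodes a VEGFR1 ligand linked to fatty acid uptake and vessel survival. It had 35.5, 41.2 and 32.8 CPM with C2S and 39.5, 34.8 and 31.3 CPM in the controls. The ranges overlapped almost fully, and the log2 fold change, 0.05 ± 0.11 (adjusted p = 0.724 by edgeR), changed sign between settings of the analysis. Vegfc (ENSMUSG00000031520, chromosome 8, 54077606 to 54187096, plus strand) encodes the VEGFR3 ligand that drives growth of lymphatic vessels. It had 1.28, 1.68 and 1.47 CPM with C2S, against 6.06, 6.27 and 5.77 CPM in the controls. The groups did not overlap, and Vegfc fell by 2.03 ± 0.27 on the log2 scale (edgeR, adjusted p = 8.46e-06), from 40 reads in all with C2S and 183 in the controls. The 3 VEGF genes therefore moved in different ways: 1 rose, 1 fell and 1 did not pass.

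Pdgfb (ENSMUSG00000000489, chromosome 15, 79995874 to 80014977, minus strand) encodes PDGF-B, whose dimer binds both PDGF receptors and recruits pericytes. It had 70.0, 75.0 and 73.9 CPM with C2S, against 161, 179 and 164 CPM in the controls. The groups lay far apart, and Pdgfb fell by 1.20 ± 0.07 on the log2 scale (edgeR, adjusted p = 1.73e-10). Pdgfa (ENSMUSG00000025856, chromosome 5, 138976014 to 138997370, minus strand), which encodes the PDGF-A chain, had 4.91, 4.45 and 4.19 CPM with C2S, against 6.15, 6.27 and 8.50 CPM in the controls. Its groups did not overlap, and it fell by 0.62 ± 0.22 (edgeR, adjusted p = 0.0229). The exons of Pdgfa share 26.1% of their length with 6330403L08Rik, and no source used here gives the strand setting of the counting, which makes its value uncertain. Its call was lost without C2S replicate 3 (edgeR, adjusted p = 0.0644), without PM_control replicate 3 (0.13) and on log2(TPM + 1) (0.101 by limma), and its adjusted p ran from 0.0113 to 0.749 across alternatives.

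Tgfb1 (ENSMUSG00000002603, chromosome 7, 25687002 to 25705077, plus strand) was the most abundant of the 10 genes in both groups. It had 417, 412 and 462 CPM with C2S, against 350, 363 and 346 CPM in the controls. The groups were separate but close, and the log2 fold change was 0.28 ± 0.06 (adjusted p = 0.00077 by edgeR), a 1.22-fold rise. A test against a change of 1.5-fold did not call it. Gdf15 (ENSMUSG00000038508, chromosome 8, 70629393 to 70632456, minus strand) had 1.87, 1.44 and 1.81 CPM with C2S, against 0.0918, 0 and 0.105 CPM in the controls. The C2S libraries held 19, 12 and 16 reads, and the PM_control libraries 1, 0 and 1. The ratio of CPM was 26.1, with an exact 95% counting interval of 6.83 to 222 that covers counting error only (edgeR log2 fold change 4.45 ± 0.70, adjusted p = 4.06e-05). Gdf15 stood at the 0.458th percentile of mean level among tested genes, so its rise was large on a very low level.

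Igf1 (ENSMUSG00000020053, chromosome 10, 87858265 to 87937042, plus strand) had 5.30, 6.85 and 6.23 CPM with C2S and 8.53, 6.67 and 9.55 CPM in the controls. The second C2S library lay above the second control library, so the groups overlapped, and the log2 fold change, -0.43 ± 0.20, missed the threshold (edgeR, adjusted p = 0.0741). It passed without PM_control replicate 2 (edgeR, adjusted p = 0.0334) and with library sizes alone (0.0351), and it was near 0 on log2(TPM + 1), at 0.018 (0.955 by limma). Across alternatives its adjusted p ran from 0.0334 to 1.00.

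Osm (ENSMUSG00000058755, chromosome 11, 4236420 to 4241026, plus strand) encodes oncostatin M, a cytokine of the interleukin-6 family. It had 50.3, 47.7 and 42.8 CPM with C2S, against 2.94, 3.64 and 3.15 CPM in the controls. The C2S libraries lay close together and far above the controls, and the log2 fold change was 3.85 ± 0.14 (adjusted p = 5.13e-13 by edgeR), the 138th largest rise.

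Hbegf (ENSMUSG00000024486, chromosome 18, 36504927 to 36515805, minus strand) encodes an EGF receptor ligand. It had 13.0, 7.45 and 6.45 CPM with C2S, against 0.367, 0.303 and 0 CPM in the controls. C2S replicate 1 was the highest, with 132 reads where the other two had 62 and 57, and the controls had 4, 3 and 0. The coefficient of variation with C2S was 39.1%, the widest of the 10 genes in that group, followed by 18.4% for Vegfa, whose highest library was also C2S replicate 1. The ratio of CPM over the groups was 39.8 (exact 95% counting interval 19.0 to 100.0), and the log2 fold change was 5.21 ± 0.48 (edgeR, adjusted p = 1.14e-07). Hbegf and Gdf15 reached the count filter in the C2S libraries only (3 of 3, against 0 of 3 controls at 1.06 CPM), so for them a difference was a condition of being tested.

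**Figure D2:**
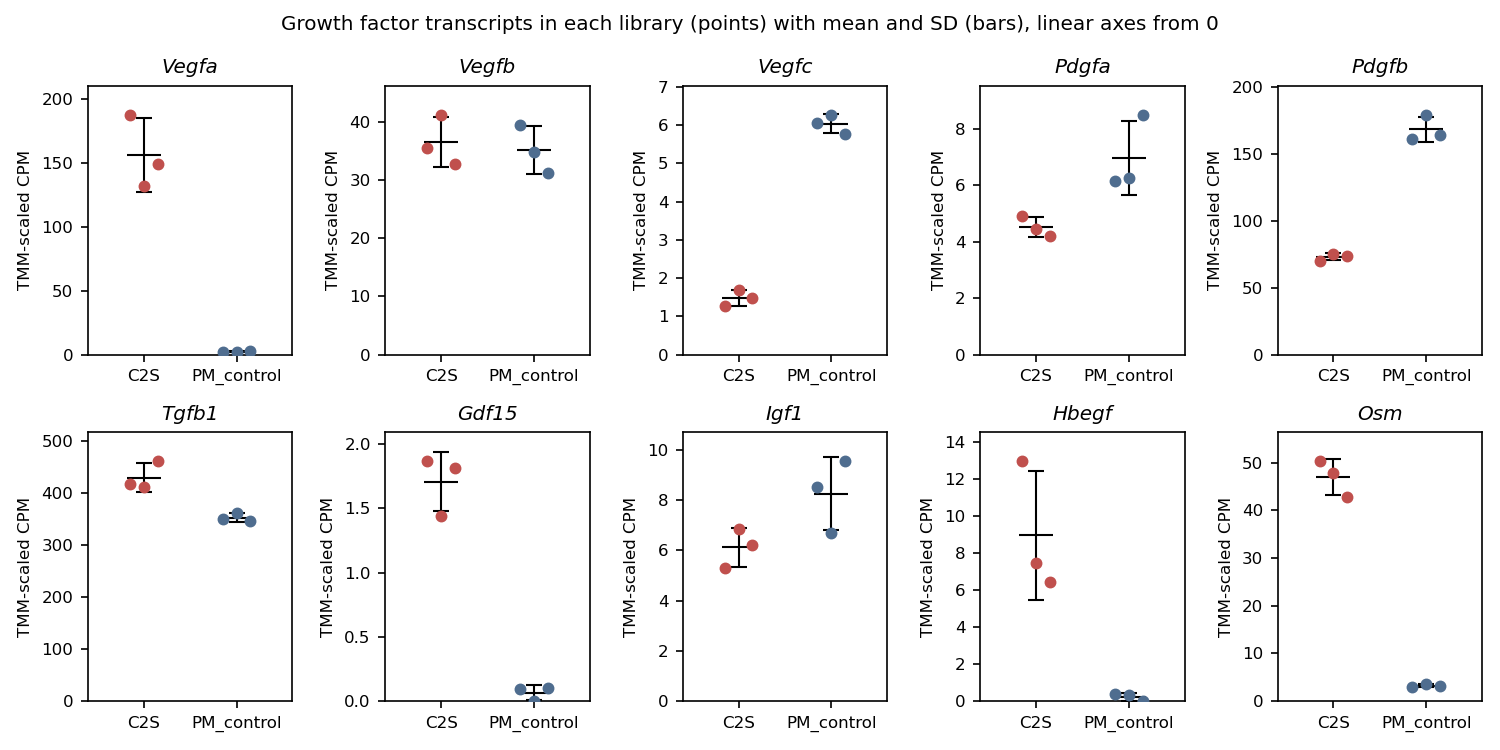
TMM-scaled CPM (y axes, linear from 0) of each growth factor gene in the 3 C2S and 3 PM_control libraries, with points for libraries and bars for the mean and SD. The groups are apart in all panels but those of Vegfb and Igf1, and Hbegf shows 1 C2S library above the other two.

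The CPM ranges of the groups did not overlap in 8 of the 10 genes, against 61.1% of all tested genes. Hbegf and Gdf15 are among these 8 and reached the count filter through the C2S libraries alone. For them the separation was a condition of being tested. In bulk libraries a change in the number of cells that make a transcript and a change in the transcript per cell cannot be told apart. Total expected counts ran from 8594485 to 10491307 with C2S and from 9149574 to 10665869 in the controls, and 3 counts, taken as the floor in 1 library, were worth 0.281 to 0.349 CPM. Of all called genes, 3123 were higher and 3282 lower, and the split was 2478 to 3999 with library sizes alone and 1717 to 3065 with limma on log2(TPM + 1). The signs of the 8 called growth factor genes were the same under these settings.

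Levels between genes were compared in TPM, the deposited relative abundance, which is scaled for transcript length. With C2S the order was Tgfb1 (328 ± 14.8 TPM, mean ± SD, n = 3), Vegfa (117 ± 19.8), Vegfb (52.9 ± 7.41), Pdgfb (38.9 ± 1.65), Osm (33.4 ± 3.12), Igf1 (8.50 ± 1.18), Hbegf (6.0 ± 2.33), Pdgfa (4.92 ± 0.701), Gdf15 (2.16 ± 0.278) and Vegfc (1.29 ± 0.632). Neighbours overlapped over their libraries between Igf1 and Hbegf, Hbegf and Pdgfa, and Gdf15 and Vegfc. In the controls the order was Tgfb1 (283 ± 9.53 TPM), Pdgfb (96.2 ± 4.78), Vegfb (55.6 ± 7.66), Igf1 (8.59 ± 2.59), Pdgfa (7.10 ± 1.67), Vegfc (5.41 ± 1.25), Osm (2.62 ± 0.548) and Vegfa (1.68 ± 0.355). Hbegf and Gdf15 came last there, with 0.27, 0.22 and 0 TPM and 0.13, 0 and 0.14 TPM. Control neighbours overlapped between Igf1 and Pdgfa, Pdgfa and Vegfc, and Hbegf and Gdf15. Vegfa was thus at rank 2 with C2S and rank 8 in the controls, Osm at ranks 5 and 7, and Vegfc at ranks 10 and 6.

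**Figure D3:**
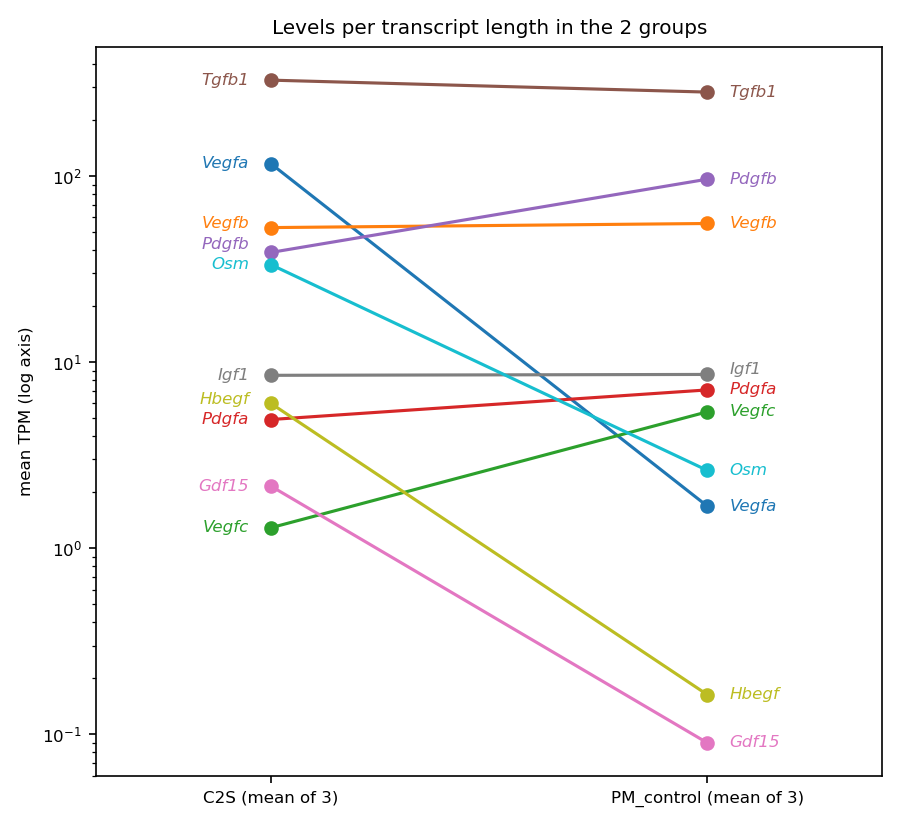
Mean TPM (y axis, log scale) of each growth factor gene over the 3 C2S libraries (left) and the 3 PM_control libraries (right), joined by a line per gene. The lines of Vegfa, Osm, Hbegf and Gdf15 are higher at C2S and that of Vegfa crosses those of Vegfb, Pdgfb, Osm, Igf1, Pdgfa and Vegfc, while Tgfb1 stays on top at 328 and 283 TPM.

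The balance within families followed from these levels. Vegfa TPM was 2.68, 1.66 and 2.38 times Vegfb TPM in the C2S libraries, against 0.0204, 0.0368 and 0.0360 times in the controls. The transcript of the VEGFR1 and VEGFR2 ligand was therefore above that of Vegfb in every C2S library and far below it in every control library. The ratio of Pdgfb to Pdgfa TPM was 6.59, 8.28 and 9.22 with C2S and 14.7, 17.2 and 10.4 in the controls, so Pdgfb stayed the larger of the pair in all 6 libraries. Summed over the 10 genes, the C2S libraries had 599, 593 and 585 TPM and the PM_control libraries 467, 472 and 442 TPM. Tgfb1 made up 51.9% to 58.0% of that sum with C2S and 60.5% to 62.0% in the controls, and Vegfa made up 17% to 23.2% with C2S, against 0.279% to 0.424%.

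A second readout of the same tables is the length RSEM gives a gene, the mean of its transcripts' lengths weighted by their estimated shares, which moves when the mix of transcripts moves. For Igf1 it gave 1310, 1309 and 1227 bases under C2S, against 1514, 2049 and 1755 bases under PM_control. Igf1 has annotated transcripts of 510 to 7052 bases, and every C2S library had a shorter estimate than every control, with a mean difference of -490.5 bases (exact two-sided permutation test, p = 0.1, the smallest that 3 against 3 allows). These estimates rest on 166 reads with C2S and 250 in the controls. Because TPM divides by this length, the values of Igf1 differ between the scales, at 6.13 ± 0.779 CPM with C2S against 8.25 ± 1.46 CPM in the controls, and 8.50 ± 1.18 TPM with C2S against 8.59 ± 2.59 TPM in the controls, and neither difference passed its test. Pdgfa also had shorter estimates with C2S, of 1491, 1562 and 1647 bases, against 1750, 1866 and 1685 bases (exact permutation test, p = 0.1), on 124 and 210 reads. Estimates without overlap between the groups were found for 15% of the tested genes with several transcripts, and for these 2 of the 8 growth factor genes with several transcripts. Vegfa had 2167, 2124 and 2168 bases with C2S, a narrow range, against 3095, 1713 and 2525 bases in the controls, which rest on 70 reads, and the groups overlapped (exact permutation test, p = 0.7). Osm, Vegfb, Vegfc, Tgfb1 and Gdf15 overlapped too, and Pdgfb and Hbegf were each listed with 1 transcript.

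**Figure D4:**
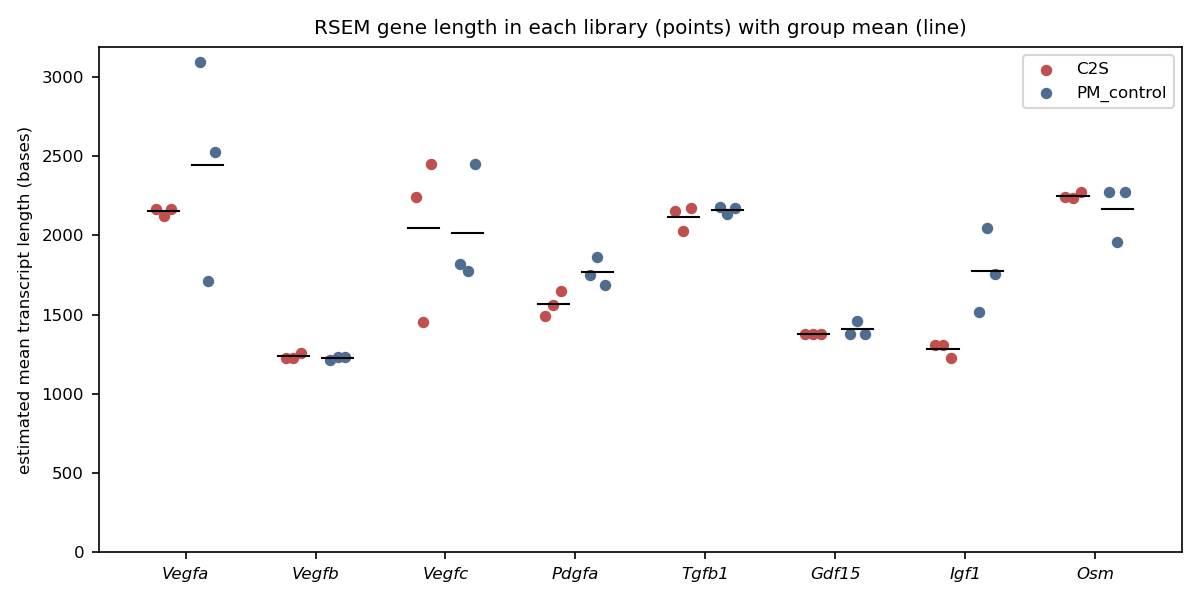
Estimated mean transcript length (y axis, bases from 0) of the 8 growth factor genes listed with several transcripts, in the 3 C2S and 3 PM_control libraries (points) with group means (lines). Igf1 and Pdgfa are the genes whose groups do not overlap, and Vegfa controls spread from 1713 to 3095 bases.

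Receptor calls for the 10 factors came at about the rate of the whole table. Of 24 receptor genes, 12 had enough counts to test, and 3 rose and 4 fell (58.3% of those tested, against 55.4% of all tested genes, with a median log2 fold change of 0.05). Tgfbr1, the type I TGF-beta receptor (0.59 ± 0.09; edgeR, adjusted p = 3.92e-05), and Igf2r (0.25 ± 0.06) rose, while the VEGF and semaphorin coreceptor Nrp1 (-0.83 ± 0.11) and Erbb3 (-0.54 ± 0.14) fell. The VEGFR2 gene Kdr had 1 read with C2S and 3 in the controls, Igf1r had 2 with C2S and 0 in the controls, and Osmr, Pdgfra and Gfral had none. The calls of Tgfbr1, Igf2r and Erbb3 were lost in a test against 1.5-fold, and 1 receptor rose on log2(TPM + 1).

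Of 23 genes for proteins that hold or release growth factors, 10 were tested, and 3 rose and 4 fell (70% called, against 55.4% of all tested genes), with 1 rising on log2(TPM + 1). One of the rises, Ltbp4, rested on few reads, 57 in all with C2S and 24 in the controls. Rhbdf2, which carries the shedding protease ADAM17 to the cell surface, rose to 119 ± 4.50 CPM with C2S, against 57.9 ± 3.52 CPM in the controls, while Adam17 itself did not pass (216 ± 15.3 against 210 ± 3.75 CPM). Furin, which cleaves the TGF-beta precursor, rose by 0.38 ± 0.06 on the log2 scale, but limma on log2(TPM + 1) did not call it (adjusted p = 0.115). Nrros, which tethers latent TGF-beta on macrophages and microglia, fell to 68.8 ± 5.75 CPM, against 156 ± 4.58 CPM, and Plau, the urokinase gene, fell to 82.2 ± 1.45 CPM, against 255 ± 28.1 CPM. Of 11 IGF binding and related genes, 2 were tested and both rose, where 27% of all tested genes were higher. They were Igfbp4 (0.44 ± 0.07; edgeR, adjusted p = 4.95e-05), whose product binds IGFs, and Stc2 (1.39 ± 0.23), an inhibitor of an IGFBP protease. Igfbp4 lost its call in a test against 1.5-fold.

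Few other angiogenic factors had enough counts. Of 20 genes, 8 were tested, and 1 rose and 5 fell (75% called, against 55.4% of all tested genes, and a median of -1.02, against -0.00212). One of the falls, Ang, had 1 C2S library and 3 control libraries at the count filter, and it shares 18.2% of its exon length with Rnase4 and is uncertain. Adm, which encodes adrenomedullin, a vasodilator peptide, rose to 5.02 ± 0.592 CPM with C2S, against 0.298 ± 0.270 CPM. Angptl2 (-1.38 ± 0.12; edgeR, adjusted p = 6.6e-08), an angiopoietin-like factor, and Aggf1 (-0.79 ± 0.06), an angiogenic factor of blood vessels, fell. Of 27 other bone-forming factors, 2 were tested: Lif, a cytokine of the same family as oncostatin M, rose to 2.23 ± 0.169 CPM with C2S, against 0.162 ± 0.153 CPM (log2 fold change 3.66 ± 0.59; edgeR, adjusted p = 5.39e-05), and Spp1, which encodes osteopontin, did not pass (1118 ± 76.0 against 1240 ± 27.1 CPM). Lif and Adm reached the count filter through the C2S libraries alone. Spp1 missed the threshold narrowly (edgeR, adjusted p = 0.0555), and its groups did not overlap. With library sizes alone, on log2(TPM + 1), in the replicate block and without C2S replicate 2, among other settings, 1 of the bone-forming factors fell. The main test had 0 falls. On log2(TPM + 1) and log2(TPM + 0.1), 0 of these factors rose, against 1 in the main test. Lif, with means of 0.843 TPM with C2S and 0.07 TPM in the controls, was below the mean of 1 TPM required there. Spp1 also shares 18.8% of its exon length with Gm42793 and is uncertain. Of 10 other EGF family ligands, Egf alone was tested and did not pass.

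Below the count filter, and named after their values were seen, 4 further factors had reads mainly with C2S. Fgf18, a fibroblast growth factor of skeletal development, had 13, 6 and 6 reads with C2S, against 0, 0 and 1. Pgf, which encodes the VEGFR1 ligand placental growth factor, had 10, 7 and 6 reads, against 0, 0 and 1, and Il11, an interleukin-6 family cytokine, had 12, 5 and 6, against 0, 0 and 1. Tgfb2 had 7, 4 and 13 reads, against 2, 0 and 0. Ratios of CPM were 27.7 for Fgf18 (exact 95% counting interval 4.54 to 1139), 25.5 for Pgf and Il11 (4.14 to 1051) and 13.3 for Tgfb2 (3.30 to 116). These 4 were chosen for this pattern, so no test of it is given. Mdk, of the other angiogenic factors and also below the filter, went the other way. It had 1, 0 and 3 reads with C2S, against 9, 4 and 6, a ratio of CPM of 0.234 (exact 95% counting interval 0.0578 to 0.703).

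Downstream genes of the factors were described from the same fit, with no list tested as a set. Of 21 SMAD pathway and TGF-beta response genes, 18 were tested, and 11 rose and 3 fell (77.8% called, against 55.4% of all tested genes, median 0.46). In a test against 1.5-fold, 4 rose and 1 fell, where 920 of all 11561 tested genes rose and 1008 fell. Tgif2, among the 3 falls of the main test, shares 56.7% of its exon length with 5430405H02Rik and is uncertain. Smad7, the inhibitory SMAD, rose to 56.3 ± 6.40 CPM with C2S, against 4.97 ± 0.147 CPM, and Tgif1, a SMAD corepressor, rose to 148 ± 9.04 CPM, against 38.5 ± 2.21 CPM. Pmepa1, a TGF-beta-induced inhibitor of the pathway, fell by 1.13 ± 0.12 on the log2 scale and Smad5 by 0.73 ± 0.08. Of 15 genes of JAK-STAT3 signalling, 13 were tested, and 8 rose and 1 fell (69.2% called, against the same 55.4%, median 0.29). One of the 8 rises, Socs1, reached the count filter through the C2S libraries alone. Against 1.5-fold, 4 genes of this list rose and 0 fell. Stat3 rose to 216 ± 8.04 CPM, against 79.6 ± 2.90 CPM, the phosphatase gene Ptpn6 fell by 0.33 ± 0.06, and the kinase gene Pim1 had a log2 fold change of 3.86 ± 0.11 but shares 14.5% of its exon length with Gm26885 and is uncertain. The shared receptor chain Il6st did not pass (98.0 ± 5.06 against 96.1 ± 3.82 CPM).

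Genes of pathways known from other studies to act on Vegfa or Gdf15 were counted in the same way. Their lists hold target genes as well as regulators. Of 24 genes of the hypoxia-inducible factors and their targets, 21 were tested, and 10 rose and 3 fell (61.9% called, near the 55.4% of all tested genes, median 0.27). Ndrg1 and the glucose transporter gene Slc2a1 rose to 246 ± 20.4 and 289 ± 15.2 CPM with C2S, against 25.9 ± 1.34 and 84.6 ± 6.49 CPM, while Hif1a (-0.48 ± 0.07) and Hif1an (-0.52 ± 0.09), a hydroxylase that restrains HIF-1, fell. Against 1.5-fold, 5 genes of this list rose and 0 fell, so neither Hif1a nor Hif1an kept its call. At that threshold 920 of all 11561 tested genes rose and 1008 fell. Among targets with no call in the main test were Ldha (1647 ± 141 against 1559 ± 32.4 CPM) and Pdk1 (44.3 ± 2.23 against 44.2 ± 3.57 CPM). Of 14 genes of the ATF4 stress response, 12 were tested, and 11 rose and 0 fell (91.7% called, with 27% of all tested genes higher, median 3.61), among them Ppp1r15a (4.38 ± 0.09; edgeR, adjusted p = 8.62e-16) and Atf3 (4.27 ± 0.09). Of 13 p53 pathway genes, 5 rose and 5 fell (76.9% called, against 55.4% of all tested genes, median 0.04), with Btg2 (2.41 ± 0.11) and Cdkn1a (0.94 ± 0.06), both inhibitors of proliferation, higher, and Sesn1 (-1.73 ± 0.12) and Zmat3 (-0.79 ± 0.07) lower. On log2(TPM + 1), 2 of the p53 genes rose, and against 1.5-fold, 2 rose and 3 fell. Of 11 genes for proteins that bind AU-rich elements in mRNA, 5 rose and 5 fell (90.9% called, against the same 55.4%). Zfp36 (2.14 ± 0.06) and Zfp36l2 (1.18 ± 0.07), which promote decay of such transcripts, rose, and Hnrnpd (-0.43 ± 0.08) and Tial1 (-0.56 ± 0.07) fell. The calls of Hnrnpd and Tial1 were lost against 1.5-fold, where 0 genes of this list fell. Some rises counted in the AU-rich, hypoxia and ATF4 lists are uncertain because of shared exon length. They are Zfp36l1 (55.9% with Gm26669), Bnip3 (22.3% with Gm45507) and Cebpb (20.7% with Tmem189).

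**Figure D5:**
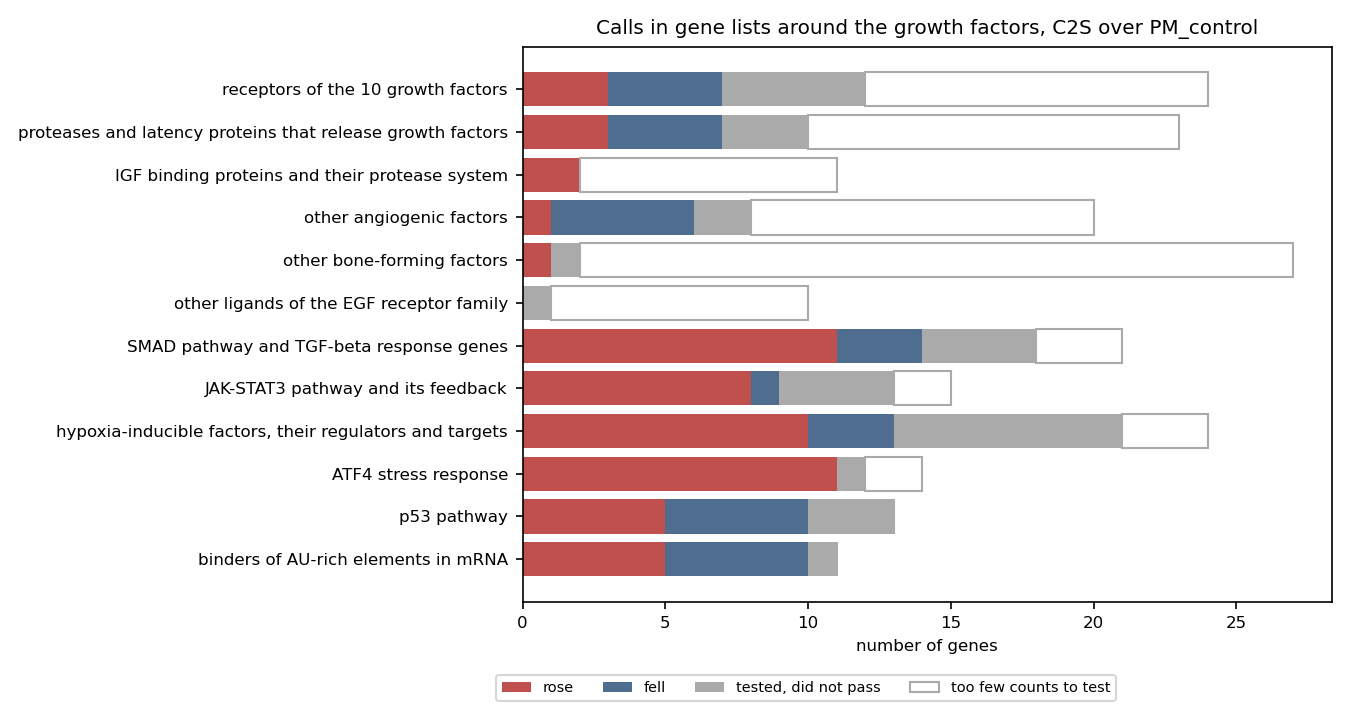
Number of genes (x axis) in each list around the growth factors that rose, fell, were tested without passing, or had too few counts to test, for C2S over PM_control. The ATF4 list has 11 rises and 0 falls, and most genes of the bone-forming and IGF lists had too few counts.

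The pattern of Vegfa over the 6 libraries was closest to those of Trib3, Arid5a, Maff, Nr4a3 and Ddit3, by Euclidean distance of log2(CPM + 1) centred on each gene's mean over the 6 libraries. Distances were 0.503, 0.600, 0.619, 0.736 and 1.37. Trib3, a pseudokinase gene, had 134, 135 and 136 CPM with C2S, against 2.84, 1.52 and 2.31 CPM in the controls. Ddit3, which encodes the stress factor CHOP, had 152, 144 and 151 CPM, against 4.86, 5.66 and 6.61 CPM. With 2 groups and 6 libraries this likeness mostly restates a jump of similar size.

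The label of the cells was checked against markers. Of 9 macrophage markers all were tested, and their summed level was 7006 to 7284 TPM with C2S and 6817 to 7141 TPM in the controls. Of these, 5 rose and 1, Cd14, fell, where 27% of all tested genes were higher and 28.4% lower. Fibroblast markers summed to at most 0.21 TPM with C2S and 0 in the controls, with Col1a2, Col3a1, Lum and Pdgfra at 0 counts, and osteoblast markers to 2.22 to 5.59 and 1.10 to 4.05 TPM, with Bglap and Ibsp at 0. Endothelial markers summed to 2.93 to 5.51 TPM with C2S, against 0.73 to 1.41 TPM, of which Pecam1, also made by myeloid cells, gave 3.19 ± 1.26 and 0.310 ± 0.0954 TPM, with Emcn at 0. Osteoclast markers summed to 18.6 to 24.3 TPM with C2S, against 36.2 to 39.7 TPM, with Calcr at 0. Of these markers, 2 of 4 tested were lower (Dcstamp and Atp6v0d2), where 28.4% of all tested genes were lower. Ctsk, of the same list and not tested, had 38 reads with C2S against 4 in the controls. The part of the osteoclast and endothelial markers in the growth factor values was not tested.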

How the data were processed

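RNA of RAW264.7 cells was sequenced in 6 libraries, 3 per group, grouped by sample title. Per the labels' protocols and the series' design text, RNA was taken with Trizol, libraries came from a TruSeq kit, and reads went through fastp, STAR (mm10) and RSEM; which annotation, versions and strand setting were used is not given in the sources used here. The authors tested with edgeR. The authors deposited, per the file headers, expected counts (estimated reads per gene), TPM, FPKM (not used) and gene lengths in bases. Symbols were found for 52403 of 52636 genes, and coordinates and exon overlap came from GENCODE M21 (GRCm38, bedtools 2.31.1).

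Expected counts were rounded and filtered with filterByExpr (minimum count 10, minimum total 15), leaving 11561 genes and 99.9% of counts. Groups were compared by the quasi-likelihood F test of edgeR 4.0.16 under R 4.3.3, after TMM scaling and with no covariates. The p-values were adjusted by Benjamini-Hochberg over all tested genes, with a threshold of 0.05. DESeq2 1.42.0 and limma 3.58.1 served as alternatives. The SE is the log2 fold change divided by the root of F, and is approximate for genes with few counts. The calls of the test, not the SE, were checked on simulated counts. Library pairs within a group differed beyond counting noise (chi-square per degree of freedom 4.30 to 6.46), so none was treated as a second deposit of another; this does not show separate cultures. All expected counts of the 10 genes were whole within 0.005.

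The members and lists were chosen with earlier results of these data known. Named genes are the 10 members, at most 2 called genes of lowest adjusted p in each direction of each list whose groups did not overlap, and the 5 genes nearest to the member with the largest change. Alternatives were other scalings and tests, TPM scales, filters, unrounded counts, a replicate block, leaving out the 10 most abundant genes or each library, removal of the GC trend and a 1.5-fold threshold. Adam17, Ltbp4, Ang, Socs1, Spp1, Egf, Il6st, Ldha, Pdk1, Tgif2, Zfp36l1, Bnip3 and Cebpb were named after their values were seen. So were the receptors with few or no reads, and 4 factors and Mdk below the count filter. RefSeq promoter windows were searched with scripts.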

Additional observations from a re-analysis of the deposited data

How the results depend on the processing

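Vegfa, Hbegf, Gdf15, Osm, Vegfc and Pdgfb kept their direction and their call under all 22 alternatives, with log2 fold changes of 5.45 to 6.18, 2.55 to 5.75, 1.53 to 4.82, 3.26 to 3.94, -2.13 to -1.50 and -1.31 to -1.16. The low ends for Hbegf and Gdf15 came on log2(TPM + 1), where the pseudocount shrinks low genes by construction. Tgfb1 lost its call in the test against 1.5-fold, and Pdgfa in that test, in the 3 TPM fits and without C2S replicate 3 or PM_control replicate 3. The count of growth factor genes called was 7 to 9 when each library was left out, 9 with library sizes alone, 7 in the TPM fits and 6 against 1.5-fold. Vegfb, which had no call, was negative with the GC trend removed (-0.0053), with library sizes alone (-0.038), on log2(TPM + 1) with and without a filter (-0.072), on log2(TPM + 0.1) (-0.073), and without C2S replicate 2 (-0.045) or PM_control replicate 3 (-0.033), within a range of -0.045 to 0.138 as libraries were left out. Igf1, also without a call, was positive on log2(TPM + 1) with and without a filter (0.018) and on log2(TPM + 0.1) (0.024).

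Over the whole table, 6405 genes were called, 5901 to 6338 when each library was left out, and 1928 against 1.5-fold, with 920 higher and 1008 lower. Higher genes numbered 1705 on log2(TPM + 0.1), 1717 on log2(TPM + 1) and 1915 on log2(TPM + 1) without a filter, against 3123 in the main test; the cause was not tested. Library sizes alone moved the median log2 fold change of all genes to -0.0894, log2(TPM + 1) to -0.0937, log2(TPM + 0.1) to -0.101 and the table without a low-count filter to 0.105. For the 40 other named genes, 858 of 878 alternative values kept direction and call, and 20 kept direction alone. Without the low-count filter, 3572 of 19753 genes rose and 3512 fell. There, 5 other bone-forming factors rose in place of 1, and 1 fell. The added rises include Fgf18, Il11 and Tgfb2, which have very few control reads and were named for that pattern. That count is therefore no test of the pattern. The labels do not say whether libraries of the same number share a culture or batch. Correlations of their deviations were -0.0112, 0.0686 and 0.0344, within the -0.107 to 0.0819 of libraries of unlike number, and they were not treated as pairs. The replicate block gave 6489 calls over the table and 8 growth factor genes, the latter as in the main test. At 0 to 36 control reads per library, depth limits the sizes of the Vegfa, Osm, Hbegf and Gdf15 rises.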
